A study of Mus musculus with 6 samples.

Results

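The heat shock response and the unfolded protein response were followed through 34 genes, named by symbol in the deposited table of transcript levels of colon regulatory T cells (Tregs), which holds 24537 genes. The symbols form 2 arms. The heat shock arm has 14 genes, of which 11 act in or from the cytosol and 3 encode mitochondrial chaperones. The endoplasmic reticulum (ER) arm has 20 genes, of which 7 are stress sensors, transcription factors or their regulators and 13 are chaperones, folding enzymes or degradation factors. The genes were chosen by function, with earlier results of these data known, and not by their values.

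Protein folding in the cytosol is served by the HSP70, HSP90 and J-domain families, whose inducible members are transcribed by the heat shock factor HSF1 when unfolded protein accumulates. The ER has its own set of chaperones, lectins and disulfide isomerases, and 3 membrane sensors, IRE1, PERK and ATF6, raise that set through the transcription factors XBP1s, ATF4 and cleaved ATF6. The cytokines and surface receptors of T cells are folded in the ER, and heat shock genes are also known to respond to warming and tissue handling.

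RNA-seq was made from colon Tregs of mice with TNBS colitis, an inflammation driven by a hapten given to the gut. Of the 6 libraries, 3 carry the label of a REV-ERB knockout (KO) and 3 that of the wild type (WT). All 6 came from mice sensitised on the skin with 150 µl of 1% TNBS and given 100 µl of 2.5% TNBS into the rectum 7 days later, so no library is from an uninflamed colon. REV-ERBα is a nuclear receptor of the circadian clock that represses transcription. The comparison of the groups asks how colon Tregs in colitis differ with the loss of REV-ERB. The sources used here do not say how the deletion was made or driven, how the Tregs were sorted, or the age, strain and pooling of the mice. The p-values measure only the spread between these libraries, which may be technical.

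Levels are in TPM, a measure per transcript length and per library, as mean ± SD over n = 3 libraries unless each library is given. The reads behind the values came to between 9794480 and 15890630 per library, and every library labelled KO was deeper than every library labelled WT. Nr1d1, which encodes REV-ERBα, was higher in every library labelled KO (155.0 ± 13.9 TPM) than in any labelled WT (86.2 ± 18.9 TPM). The sources used here do not name the exons removed, so the directions below follow the labels. The T cell markers Cd3e and Cd4 and the Treg factor Foxp3 were present in all 6 libraries, and Foxp3 was at 200.6 ± 32.1 TPM under the KO label against 568.4 ± 107.8 TPM under the WT label. Epithelial keratin transcripts were also present in every library, with Krt8 between 276.5 and 1037 TPM.

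Cytosolic heat shock genes mostly had lower means, and ER chaperones mostly higher means, in the libraries labelled KO. Of the 11 cytosolic genes, 9 had a lower mean on the log2 scale, with a median difference of -0.23. Of the 13 ER chaperones and folding enzymes, 12 had a higher mean, with a median difference of 0.26. The median over all 13211 genes tested was -0.003, and 49.5% of them lay above 0. In the whole heat shock arm, 10 of 14 genes lay below 0 and 4 above. In the whole ER arm, 14 of 20 genes lay above 0 and 6 below. Of the 7 ER sensors and factors, 5 lay below 0. Each difference was taken on log2(TPM + 1), KO label minus WT label. All 34 members passed the filter of at least 1 TPM in at least 3 libraries, at levels from 5.16 to 2343 TPM, and the smallest number of reads behind any member's value was 69.

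No member, and none of the 13211 genes, passed an adjusted p of 0.05 in limma's moderated test (0 called, 0.0% of the genes tested). The smallest adjusted p of a member was 0.191. At an unadjusted p under 0.05, 2068 genes passed in that test and 2180 in limma's voom on the recovered reads, which also called 0 genes after adjustment. Of the members, 10 passed unadjusted, 7 of them higher and 3 lower, against 7.8% and 7.86% of the genes tested. With array weights, which give less weight to libraries that vary more, limma called 4.41% of the genes tested and 3 members: Hyou1 (adjusted p = 0.0479), Hsph1 (adjusted p = 0.0485) and Hspa9 (adjusted p = 0.0493). Groups without overlap are given as a description: all 3 libraries labelled KO lay above the 3 labelled WT for 10.6% of the genes tested, and below them for 10.4%. Among the 5868 genes with a mean of at least 20 TPM these shares were 11.8% and 13.4%. With 3 libraries a group, 0.1 is the smallest p that exact permutation allows.

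Markers of other cells varied with the labels or between libraries beside these results. The 20 epithelial markers summed to between 3806 and 7081 TPM under the KO label and between 2368 and 3575 TPM under the WT label. Of these, 20 of 20 had a difference above 0 and 14 were higher without overlap, against 49.5% and 10.6% of all genes tested. None was at 0 in all libraries. The 6 plasma cell markers in the table, cells rich in ER, summed to 2125, 1417 and 558.1 TPM in KO 1, 2 and 3 and to 1572, 1491 and 733.8 TPM in WT 1, 2 and 3, mostly from Jchain, so their groups overlapped and KO 3 was lowest. The 11 T cell and Treg markers summed to between 5214 and 5883 TPM against 6706 to 7482 TPM. Of these, 6 were lower without overlap, against 10.4% of all genes tested. Neutrophil markers summed to between 13.8 and 42.4 TPM against 4.35 to 11.3 TPM. Sums overlapped for endothelial markers, at 49.5 to 62.4 TPM against 37.6 to 49.7 TPM, and for B cell markers, at 27.5 to 52.4 TPM against 26.4 to 48.1 TPM. Macrophage and dendritic cell markers (768.8 to 1393 against 723.9 to 1169 TPM), fibroblast markers (249.5 to 475.8 against 190.8 to 453.4 TPM) and CD8 T and NK cell markers (7.60 to 11.6 against 8.44 to 15.7 TPM) overlapped in their sums. In bulk libraries fewer cells of a type and less RNA per cell cannot be told apart, and the part of these transcripts in the ER and heat shock values was not tested.

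**Figure D1:**
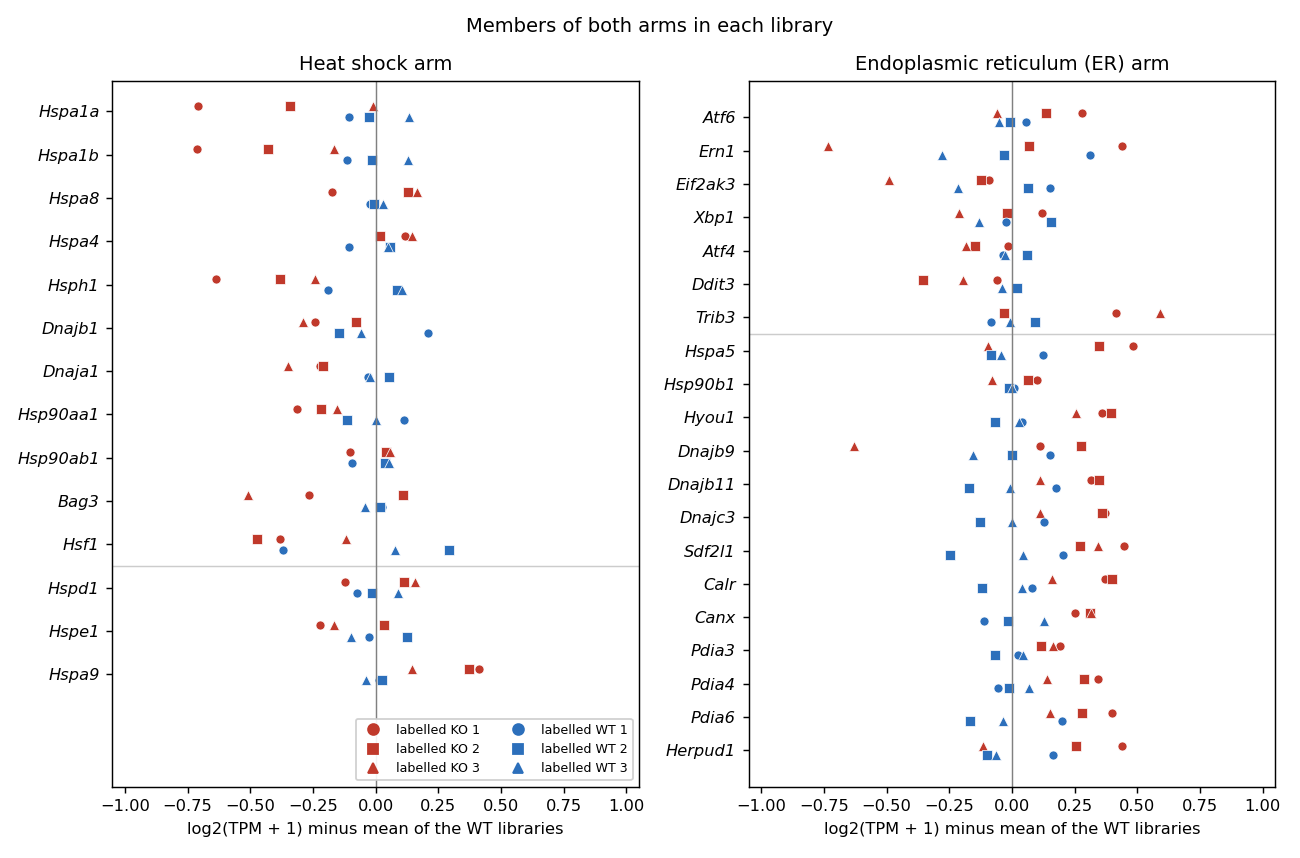
Each row is a member, and each symbol is 1 library, placed by its log2(TPM + 1) minus the mean of the 3 libraries labelled WT (red, labelled KO; blue, labelled WT; circle, square and triangle, libraries 1, 2 and 3). Horizontal lines part the 11 cytosolic from the 3 mitochondrial genes and the 7 sensors and factors from the 13 chaperones; red symbols lie mostly to the left for the cytosolic genes and mostly to the right for the ER chaperones.

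In the cytosolic group, 4 of 11 genes were lower in every library labelled KO than in any labelled WT and 0 were higher, against 10.4% and 10.6% of the genes tested. They were Hspa1b, Hsph1, Dnaja1 and Hsp90aa1. With 1 library left out, 4 to 6 of the 11 were lower: 6 without KO 2, against 12.9% of all genes tested, and 6 without KO 3, against 23.5%. In voom on the recovered reads Hsp90aa1 overlapped between the groups.

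Hspa1b (NM_010478, mm10 chromosome 17, 34956429 to 34959238, minus strand) encodes the stress-inducible HSP70. KO libraries 1, 2 and 3 held 711.4, 865.0 and 1040.3 TPM of it, and WT libraries 1, 2 and 3 held 1076, 1154 and 1276 TPM. The gap between the groups, from KO 3 to WT 1, was narrower than the steps between the libraries labelled KO. Its log2 difference was -0.435 (SE 0.156, limma adjusted p = 0.256), and the exact permutation p was 0.1.

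Hspa1a, its near copy on the same chromosome, was at 493.1, 636.0 and 799.8 TPM under the KO label and at 749.0, 790.8 and 884.0 TPM under the WT label. Here KO 3 lay within the range of the libraries labelled WT, so the groups overlapped (log2 difference -0.35, limma adjusted p = 0.379). Without KO 1 the difference of Hspa1a was -0.18. The transcripts of the pair are so alike that 62.3% of the 50-base words of Hspa1b also occur in Hspa1a. The sources used here do not say how reads matching both were assigned. The sum of the pair does not depend on how such reads were divided between them, but would still be affected if they were discarded or counted for both. That sum came to 1515 ± 318.1 TPM against 1977 ± 169.5 TPM, with overlap between KO 3 and WT 1 (exact permutation p = 0.2).

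The promoters of the pair show how alike they are. In the RefSeq promoter windows of GRCm38.p6, which run from 250 bases before to 50 after the start site, both carry the same 38 bases around a pair of inverted heat shock units, the letters HSF1 binds. The stretches are chr17:34959320-34959357 for Hspa1b and chr17:34972238-34972275 for Hspa1a, both on the minus strand, beginning at base -119 from the start site. They are shown with those of Dnaja1 (chr4:40722329-40722366, plus strand), Hspe1 (chr1:55088053-55088082, plus strand) and Hsph1 (chr5:149636283-149636305, minus strand, just past the start site), where the capitals mark the fixed letters of the units.
Hspa1b: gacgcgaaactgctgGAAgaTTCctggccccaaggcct
Hspa1a: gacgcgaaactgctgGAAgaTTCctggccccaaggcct
Dnaja1: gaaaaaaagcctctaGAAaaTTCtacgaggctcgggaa
Hspe1: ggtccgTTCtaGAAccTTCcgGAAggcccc
Hsph1: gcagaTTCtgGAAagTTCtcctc

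Heat shock letters were searched on both strands as 2 units, GAANNTTC, and as 3 units, where GAA follows after 2 more bases, every match of the longer motif also holding the shorter. Of the 9 heat shock arm genes with a window, 7 held the 2-unit motif and 3 the 3-unit motif, the latter being Hsph1, Hspd1 and Hspe1. The matches of Hspd1 and Hspe1 are the same bases read from opposite strands, so the same element is counted for both genes. Among all 27025 genes with a window the shares were 9.04% and 0.662%. Of the 18 ER arm genes with a window, 0 held either. These matches describe letters in the window only. Of the 7 members with the 2-unit motif, 6 lay below 0 and 1, Hspd1, above it (median difference -0.261), and Hspd1 lay below 0 with array weights or without KO 3. Of the 684 other genes with that motif that were tested, 338 lay above 0 and 346 below (median -0.004).

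Hsph1 (NM_013559, mm10 chromosome 5, 149616845 to 149636315, minus strand) encodes HSP110, which exchanges the nucleotide on HSP70. Its level was 293.7, 351.5 and 387.0 TPM under the KO label and 401.3, 485.5 and 491.9 TPM under the WT label. Again KO 1 was the lowest and WT 1 the closest to the KO label. The difference was -0.42 (SE 0.136, 95% interval -0.735 to -0.104, limma adjusted p = 0.227).

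Dnaja1, a J-domain partner that feeds clients to HSP70, was at 122.3, 123.1 and 111.6 TPM against 139.7, 147.9 and 140.3 TPM (log2 difference -0.26, limma adjusted p = 0.242). The gap between the groups was wider than the range within either. Its row overlaps Gm6297 on the opposite strand, and 30.6% of its words occur in other annotated transcripts, mostly Gm15542. Dnajb1, the J-domain partner most tied to HSF1, was at 206.5, 231.3 and 200.1 TPM against 282.5, 220.7 and 234.7 TPM, and its groups overlapped because WT 2 lay below KO 2.

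Hsp90aa1, the inducible cytosolic HSP90, stood at 423.5, 452.1 and 473.6 TPM under the KO label and 568.9, 486.2 and 527.6 TPM under the WT label (log2 difference -0.23, limma adjusted p = 0.336). Its constitutive partner Hsp90ab1, the most abundant member per length, was level at 2253 ± 133.9 against 2254 ± 123.7 TPM, with a 95% interval of the log2 difference from -0.279 to 0.277. Hspa8, the constitutive HSP70, was also close between the groups at 1381 ± 171.5 against 1336 ± 23.9 TPM, with an interval from -0.253 to 0.332. For Hspa8 and Hsp90aa1, 74.8% and 58.5% of the transcript's words occur in other annotated transcripts, mostly Gm15459 and Gm12346.

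The balance of inducible to constitutive HSP70, taken within each library as the summed TPM of Hspa1a and Hspa1b over that of Hspa8, was 1.02, 1.03 and 1.23 under the KO label. It was 1.39, 1.46 and 1.585 in those labelled WT, above every library labelled KO. The ratio of Hsp90aa1 to Hsp90ab1 was 0.202, 0.195 and 0.202 against 0.269, 0.210 and 0.226, also without overlap. The ratio of Dnajb1 to Dnaja1 overlapped, at 1.79 ± 0.0953 against 1.73 ± 0.270. These ratios share members with the results above and were given no test.

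Among the other cytosolic members, Hsf1, the heat shock factor itself, was at 33.3, 31.2 and 40.2 TPM against 33.6, 53.8 and 46.2 TPM. WT 1 lay within the range of the libraries labelled KO. Bag3, a cochaperone that hands HSP70 clients to autophagy, was at 54.5, 71.0 and 45.9 TPM against a tight 67.0, 66.5 and 63.9 TPM, with KO 2 the highest of all 6 libraries. Hspa4, another nucleotide exchange factor, was at 107.8 ± 4.98 against 101.1 ± 6.46 TPM (0.09 on the log2 scale).

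The 3 mitochondrial chaperones did not share a direction. Hspa9, the mitochondrial HSP70 that pulls proteins into the matrix, was at 170.4, 166.0 and 141.5 TPM under the KO label and at 129.0, 130.1 and 124.6 TPM under the WT label. It was the 1 gene of the heat shock arm that was higher without overlap (log2 difference 0.31, SE 0.102, limma adjusted p = 0.231). Hspd1 and Hspe1 form the folding chamber of the matrix and are transcribed from a shared promoter. They were at 293.0 ± 29.7 against 282.4 ± 16.5 TPM and at 264.8 ± 25.3 against 287.0 ± 22.9 TPM, both overlapping, and 44.8% of the words of each occur in other annotated transcripts.

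**Figure D2:**
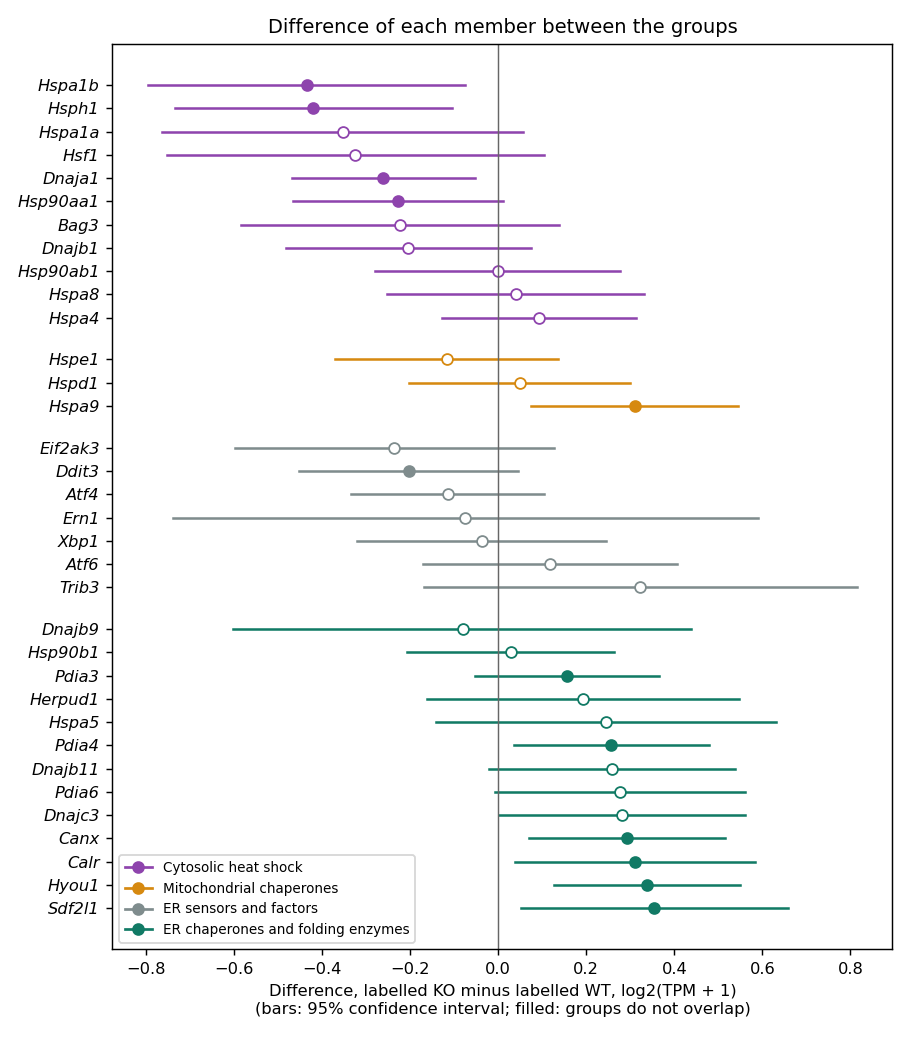
Difference of each member between the groups (x axis: log2(TPM + 1), labelled KO minus labelled WT; circles with 95% confidence intervals from limma, n = 3 libraries per group; filled circles, groups that do not overlap). The 4 filled cytosolic genes lie left of 0, from -0.435 to -0.23, and the 6 filled ER chaperones lie right of 0, from 0.16 to 0.35.

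Of the 7 sensors and transcription factors of the ER, 1 was lower without overlap and 0 were higher, against 10.4% and 10.6% of the genes tested. Their median difference was -0.075, and 0.05 without KO 3. That gene was Ddit3, which encodes CHOP, the factor tied to cell death under lasting ER stress. It stood at 63.3, 51.4 and 57.5 TPM under the KO label and 66.9, 66.9 and 64.1 TPM under the WT label (log2 difference -0.20, limma adjusted p = 0.399). KO 1 and WT 3 were nearly level, the groups overlapped after median centring, quantile normalization or in voom, and the row overlaps Mars on the opposite strand.

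Atf4, the factor translated under PERK and related kinases, was at 445.2 ± 27.7 against 481.9 ± 17.8 TPM. Xbp1, whose message IRE1 splices, was at 208.4 ± 23.8 against 213.7 ± 22.0 TPM, and values per transcript do not show the spliced form. Both overlapped. Trib3, a pseudokinase induced by ATF4 and CHOP and the least abundant member, was at 7.69, 5.37 and 8.80 TPM against 5.16, 5.94 and 5.48 TPM, with KO 2 inside the range under the WT label.

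Among the 3 sensors, Ern1, which encodes IRE1α, spread most. It was at 154.8, 119.8 and 68.3 TPM under the KO label and at 141.6, 111.6 and 93.8 TPM under the WT label, so the libraries of a group differed by more than the groups. Its log2 difference of -0.07 became 0.25 without KO 3. Eif2ak3, which encodes PERK, was at 32.02, 31.3 and 24.0 TPM against 38.1, 35.8 and 29.3 TPM, and Atf6 at 32.1 ± 3.89 against 29.4 ± 1.15 TPM, both overlapping.

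Of the 13 ER chaperones, folding enzymes and degradation factors, 6 had all KO libraries above all WT libraries and 0 were lower, against 10.6% and 10.4% of the genes tested. They were Hyou1, Sdf2l1, Calr, Canx, Pdia3 and Pdia4. These 13 genes also had 6 of the 10 members with an unadjusted p under 0.05, against 7.8% of all genes tested in that direction. The members past that threshold were the same except that Dnajc3 took the place of Pdia3. Without KO 3, 12 of the 13 were higher without overlap, against 19.3% of all genes tested, and 9 were without WT 1, against 18.2%. The sizes were small, up to 1.27-fold for Sdf2l1 and Hyou1.

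Hyou1 (NM_021395, mm10 chromosome 9, 44379490 to 44392369, plus strand) encodes the large HSP70 that exchanges the nucleotide on BiP. It was at 115.7, 118.6 and 107.5 TPM under the KO label and at 92.6, 85.6 and 91.6 TPM under the WT label. The distance between the groups was larger than the range within each, and the difference of 0.34 (SE 0.0913, 95% interval 0.127 to 0.549) had the smallest adjusted p of any member (limma adjusted p = 0.191). Sdf2l1, which works with the J-domain cofactors of BiP, was at 115.5, 102.1 and 107.2 TPM against 97.5, 70.9 and 86.9 TPM. WT 1 came closest to the libraries labelled KO.

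The lectin chaperones Calr and Canx hold glycoproteins while they fold. Calr was at 1222, 1243 and 1054 TPM under the KO label and at 995.7, 867.2 and 970.8 TPM under the WT label (log2 difference 0.31, limma adjusted p = 0.274). Canx was at 198.4, 206.9 and 207.8 TPM against 154.2, 164.8 and 182.3 TPM (log2 difference 0.29, limma adjusted p = 0.231). In both, the lowest library labelled KO stood above the highest labelled WT.

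The disulfide isomerases form and rearrange disulfide bonds. Pdia3, the partner of the lectins, was at 507.8, 482.7 and 498.6 TPM against 452.0, 424.4 and 459.4 TPM, and Pdia4 at 169.5, 162.9 and 146.9 TPM against 128.3, 132.2 and 139.8 TPM. Both genes were without overlap, Pdia4 by little, and Pdia3 overlapped after quantile normalization. Pdia6 was at 263.6, 242.6 and 222.0 TPM against 229.7, 177.9 and 195.0 TPM, where WT 1 lay above KO 3. Its row overlaps Atp6v1c2 on the opposite strand.

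**Figure D3:**
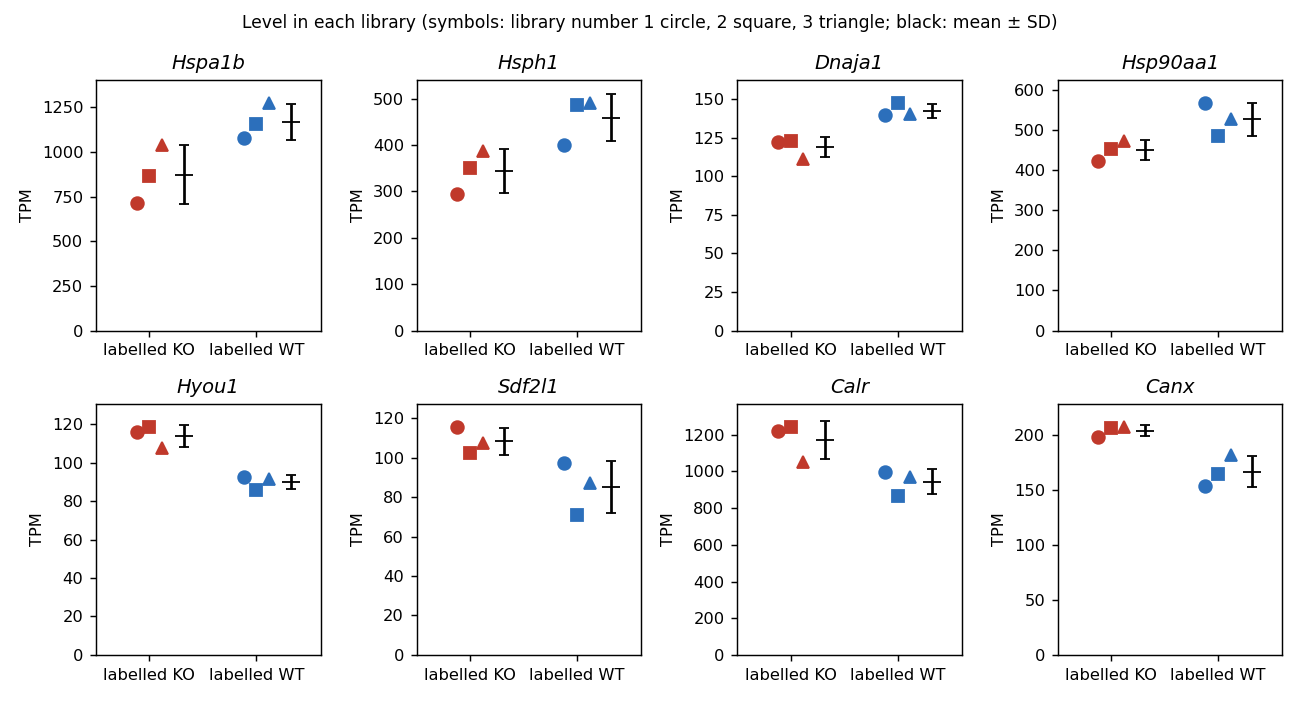
TPM in each library for 8 of the members whose groups do not overlap (y axis from 0; coloured symbols, libraries 1 to 3 as circle, square and triangle; black, mean ± SD, n = 3). Members without overlap that are not drawn are Pdia3, Pdia4, Hspa9 and Ddit3. Hspa9 (log2 difference 0.31) and Ddit3 (-0.20) went against the direction shown for their arm. The upper row holds heat shock genes, lower under the KO label, and the lower row ER chaperones, higher under the KO label.

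Hspa5, which encodes BiP, the main ER chaperone and the usual readout of the unfolded protein response, overlapped between the groups. It was at 1957, 1785 and 1312 TPM under the KO label and at 1529, 1323 and 1361 TPM under the WT label. KO 1 and KO 2 were above every library labelled WT and KO 3 was below all of them. Its log2 difference was 0.25 (SE 0.167, limma adjusted p = 0.508), 0.42 without KO 3 and 0.13 without KO 1. Herpud1, which assembles the ER degradation complex, had the same order, at 342.3, 301.4 and 233.0 TPM against 282.6, 235.6 and 241.5 TPM.

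The J-domain cofactors of BiP varied likewise. Dnajb9 was at 94.6, 106.2 and 56.3 TPM against 97.5, 87.7 and 78.6 TPM, so KO 3 was the lowest library, and its log2 difference of -0.08 became 0.19 without KO 3. Dnajb11 and Dnajc3 were at 170.9 ± 14.8 against 143.0 ± 17.4 TPM and at 55.4 ± 5.55 against 45.4 ± 4.13 TPM, with KO 3 just below WT 1 in each. Hsp90b1, the HSP90 of the ER, was nearly level at 971.9 ± 61.8 against 952.1 ± 7.13 TPM.

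The letters of known ER stress elements were searched in the same windows. The ER stress response element ERSE, CCAAT and CCACG with 9 bases between them, which binds NF-Y and ATF6, was found on either strand in 6 of the 18 ER arm genes with a window and in 37 of all 27025 genes (0.137%). A shorter form, ERSE-II, ATTGG and CCACG with 1 base between them, was found in 2 more, Herpud1 and Dnajb11, and in 0.0444% of all genes. The stretches holding these letters are shown because the 6 ERSE genes all had a difference above 0 (median 0.28). This was not particular to them, since 12 of the 13 ER chaperones and folding enzymes lay above 0 (median 0.26). Of the ERSE genes, Hsp90b1 was at only 0.028, and at -0.008 without KO 1. The fixed letters are in capitals, and a reversed element reads CGTGG, then ATTGG. No member held both ERSE and ERSE-II. They lie on GRCm38.p6 at chr2:34772010-34772058 (plus strand, Hspa5), chr8:84847060-84847108 (minus, Calr), chr11:50325785-50325833 (minus, Canx), chr12:17266476-17266524 (plus, Pdia6), chr14:118937812-118937860 (plus, Dnajc3), chr10:86705518-86705671 (minus, Hsp90b1, with 2 elements) and chr8:94386368-94386396 (plus, Herpud1).
Hspa5: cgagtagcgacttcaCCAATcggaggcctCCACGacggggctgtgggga
Calr: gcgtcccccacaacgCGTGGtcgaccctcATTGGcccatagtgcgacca
Canx: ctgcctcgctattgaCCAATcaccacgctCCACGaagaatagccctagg
Pdia6: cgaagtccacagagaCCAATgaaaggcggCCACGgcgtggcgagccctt
Dnajc3: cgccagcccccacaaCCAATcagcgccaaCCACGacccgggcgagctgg
Hsp90b1: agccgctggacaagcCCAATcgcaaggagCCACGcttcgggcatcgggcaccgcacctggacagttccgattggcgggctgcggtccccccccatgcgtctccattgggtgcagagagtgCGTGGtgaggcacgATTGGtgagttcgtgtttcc
Herpud1: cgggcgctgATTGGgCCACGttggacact

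Having the element did not go with one size of difference. Hsp90b1, with 2 elements, was level, and of the 6 ERSE genes only Calr and Canx were apart between the groups, while Sdf2l1, Pdia3 and Pdia4 were apart and hold neither motif in the window. Of the other 31 genes with the ERSE letters, 11 were tested, of which 5 lay above 0 and 6 below (median -0.055). Among these 11, 0 were higher and 3 lower without overlap, against 10.6% and 10.4% of all genes tested. The 11 include Creld2, Derl3 and Syvn1, which are also on the list of further ER genes below. The XBP1 letters TGACGTGG (0.714% of all genes) and the ATF4 letters TGATGNAAT (1.08%) were in no member's window.

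Further genes of the ER came from a list chosen by function. Of 44 tested, 30 had a higher mean under the KO label, 11 were higher without overlap and 0 lower, against 10.6% and 10.4% of all genes tested. Their median difference was 0.134, and 0 passed the adjusted threshold. P4hb, the archetypal protein disulfide isomerase, was at 379.6, 389.8 and 370.7 TPM against 296.8, 251.7 and 285.6 TPM (log2 difference 0.45, limma adjusted p = 0.141). Sec61a1, the channel through which proteins enter the ER, was at 169.1, 166.7 and 162.6 TPM against 137.4, 133.6 and 130.8 TPM. Both pairs of groups were far apart for the spread within them.

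Genes of the integrated stress response, the program of ATF4 and the kinases that feed it, had a median difference of 0.219 over 28 tested, 19 above 0 and 9 below. Of these, 11 were higher without overlap and 0 lower, against 10.6% and 10.4% of all genes tested, while Atf4 and Ddit3 themselves had lower means. Chac1, a glutathione-degrading enzyme, was at 6.50, 7.16 and 4.72 TPM against 2.74, 2.64 and 2.22 TPM (log2 difference 1.00, limma adjusted p = 0.141). Asns, asparagine synthetase, was at 32.2, 20.9 and 20.7 TPM against 15.5, 11.9 and 11.6 TPM (log2 difference 0.85, limma adjusted p = 0.162). The 1-carbon enzymes Shmt2 (0.48) and Mthfd2 (0.58) and the cystine carrier Slc7a11 (0.84), chosen after their values were seen, were also apart. Slc7a11 was low, at 1.745, 4.13 and 2.325 TPM against 0.73, 1.02 and 1.35 TPM (limma adjusted p = 0.259). The values of Chac1 rested on 26 to 104 reads per library.

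A further list, mostly of cytosolic chaperones and cochaperones, did not share the direction of the heat shock members. Of 40 tested, 21 lay above 0 and 19 below (median 0.022), 9 were higher without overlap and 3 lower, against 10.6% and 10.4% of all genes tested. The list also holds Hspa13 and Serpinh1, which encode ER proteins. Hspa13, at 26.1 against 21.6 TPM, was among the 9 that were higher. The J-domain protein Dnajb4 was at 28.3, 25.4 and 20.6 TPM against 40.2, 43.5 and 35.6 TPM (log2 difference -0.67, limma adjusted p = 0.145). Bag2, an inhibitor of the HSP70 ligase CHIP, was at 2.61, 3.93 and 4.08 TPM against 1.01, 1.29 and 1.92 TPM. Of 13 further mitochondrial chaperones and proteases tested, 4 were higher without overlap and 0 lower (median 0.125), against the same shares, among them Grpel1, the exchange factor of mitochondrial HSP70, at 25.3 ± 0.264 against 19.3 ± 0.795 TPM, and Dnaja3, a J-domain partner of the same HSP70, at 31.2 ± 1.61 against 24.4 ± 3.87 TPM.

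Across libraries the arms ran differently. KO 1 held the lowest value of 6 of the 11 cytosolic genes and the highest of 8 of the 13 ER chaperones, while it was lowest for 19.8% and highest for 12.4% of all genes tested. KO 3 held the lowest value of 5 of the 7 sensors and factors and of 4 of the 13 chaperones, against 14.1% of all genes tested. WT 2 held the lowest value of 7 of the 13 chaperones, against 22.4% of all genes tested. The median position of the 13 ER chaperones, as log2(TPM + 1) against the mean of all 6 libraries, was 0.216, 0.164 and 0.005 under the KO label and -0.004, -0.206 and -0.135 in those labelled WT. That of the 11 cytosolic genes was -0.194, -0.08 and 0.043 against 0.071, 0.127 and 0.107. KO 3 and WT 1 sat side by side in both lists, with KO 1 and KO 2 on one side of them and WT 2 and WT 3 on the other. This layout was not particular to the arms. Epithelial markers had it too, at 0.377, 0.944 and 0.048 against -0.119, -0.893 and -0.358. So did the T cell and Treg markers, at -0.154, -0.228 and 0.027 against 0.08, 0.225 and 0.125. The plasma cell markers and the immediate early genes, given below, did not. The part of these markers in the layout was not tested.

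**Figure D4:**
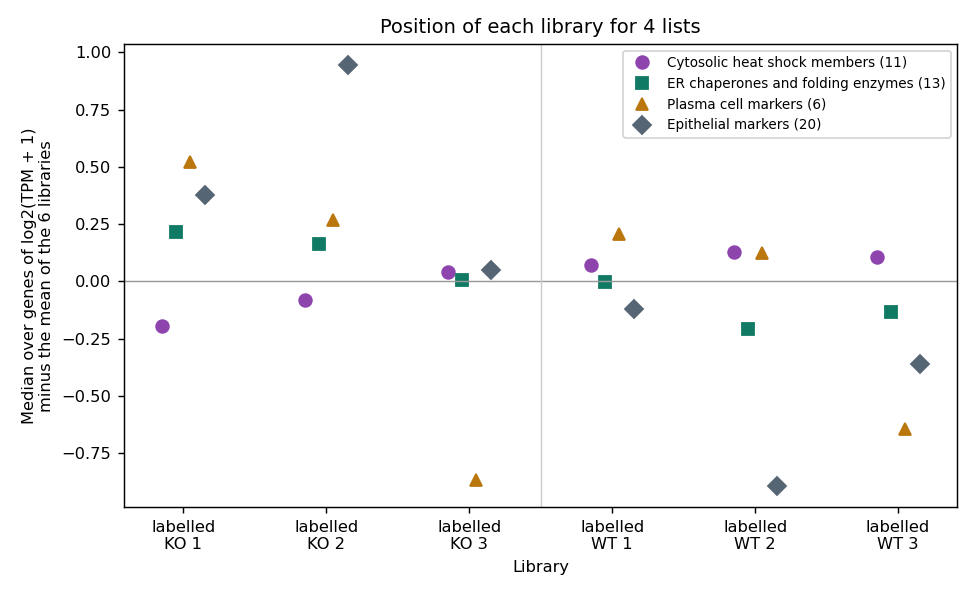
Median position of each library (y axis: median over the genes of a list of log2(TPM + 1) minus the gene's mean over the 6 libraries; symbols are lists, with the number of genes in brackets). KO 1 is lowest for the cytosolic heat shock genes at -0.194 and highest for the ER chaperones at 0.216, and the epithelial markers are above 0 in all libraries labelled KO and below 0 in all labelled WT.

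Signs of handling and RNA quality were read in the same way. The immediate early genes, which cell handling can raise along with heat shock genes, had a median difference of -0.047 over 21 genes, 1 higher without overlap (Ier3) and 2 lower (Jun and Dusp2), against 10.6% and 10.4% of all genes tested. Their median position was 0.192, 0.128 and -0.396 in KO 1, 2 and 3 and 0.152, -0.006 and -0.077 in WT 1, 2 and 3, so KO 3, which also held the lowest value of 9 of the 20 ER genes, stood lowest. Ier3 was at 39.6, 63.0 and 51.7 TPM against 31.7, 21.8 and 30.5 TPM. Jun was at 491.6, 488.6 and 360.4 TPM against 618.5, 548.6 and 550.3 TPM. Of 9 genes tested as signs of RNA quality, 2 were higher without overlap and 2 lower, against the same shares. The 2 that were higher encode ribosomal proteins, Rplp0 (0.36) and Rps3 (0.28), with limma adjusted p of 0.238 and 0.292. The nuclear transcripts Malat1 (-0.93) and Neat1 (-0.98) were lower in every library labelled KO, with limma adjusted p of 0.085 and 0.119. The part of these genes in the heat shock and ER results was not tested.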

How the data were processed

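The authors deposited TPM values, scaled by transcript length and library size, per the file headers. Each gene symbol has 1 row, under the RefSeq name of 1 transcript. The submitters' processing notes name FastQC 0.11.8, Trim Galore 0.4.4, STAR 2.5.3a, HOMER 4.9.1 and the build mm10. The deposited TPM summed to between 634200.5 and 644661.7 per library. The sources used here do not say whether counting used strand or how reads with several matches were treated. Reads were recovered from TPM times length: 99.99% of values of 500 reads or fewer came out whole, within 0.1 read. Genes with at least 1 TPM in at least 3 of 6 libraries (13211) were tested on log2(TPM + 1) with limma 3.58.1 in R 4.3.3 (variance trend, genotype only, two-sided, Benjamini-Hochberg over all genes); the fit was tested on simulated data. The exact permutation tests were two-sided. The members and lists were chosen with earlier results of these data known. All 34 members are named, and of each other list the 2 genes with the smallest p; others named were chosen after their values were seen. RefSeq promoter windows were matched by symbol for 27 of the 34 members (not Hspa8, Hsp90aa1, Hsp90ab1, Hsf1, Hspa9, Atf6 and Hyou1), and 50-base words were compared with GENCODE M21 transcripts. Alternatives were another pseudocount, filters, scalings, weights, voom, a replicate block and leaving out each library. Python 3.11.15 and matplotlib 3.10.9 drew the figures.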

Additional observations from a re-analysis of the deposited data

How the results depend on the processing

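Of 34 members, 27 kept the sign of their difference under all 15 alternatives. The other filters, the fit without a variance trend and the replicate block leave each member's difference unchanged, so they could not turn a sign. Hspa8 turned to -0.072 with quantile normalization and -0.010 with array weights, Hsp90ab1 to 0.015 with median centring and 0.040 in voom, and Xbp1 to 0.003 in voom and 0.054 with array weights. Array weights also turned Hspd1 (-0.020), Ern1 (0.243) and Dnajb9 (0.147). Leaving out 1 library each gave ranges of -0.022 to 0.147 for Hspa8, -0.047 to 0.049 for Hsp90ab1, -0.005 to 0.135 for Hspd1, -0.331 to 0.254 for Ern1, -0.116 to 0.050 for Xbp1, -0.008 to 0.080 for Hsp90b1 and -0.259 to 0.193 for Dnajb9. With array weights limma called 225 genes higher and 357 lower at an adjusted p of 0.05 (4.41% of those tested), among them 3 members, Hsph1 (adjusted p = 0.0485), Hspa9 (adjusted p = 0.0493) and Hyou1 (adjusted p = 0.0479); the cause was not tested. Without WT 1 it called 2 higher and 12 lower, none a member, and leaving out any other library called 0. The heat shock median of -0.213 was -0.131 with array weights and ran from -0.242 to -0.127 (without KO 3) over libraries left out, and the ER median of 0.219 ran from 0.134 (without KO 1) to 0.267. Heat shock genes lower without overlap numbered 4 to 7 over libraries left out (7 without KO 2, against 12.9% of genes) and those higher 1 to 3 (3 without KO 1, 2 without KO 2). In voom they were 3 lower, without Hsp90aa1, and 2 higher, with Hspa4. ER genes higher without overlap numbered 6 to 13 (13 without KO 3, against 19.3% of genes), or 5 with quantile normalization, where Pdia3 overlapped, and those lower 1 to 2 (2 without KO 1 or WT 3), or 0 with median centring and in voom, where Ddit3 overlapped, and with quantile normalization Atf4 took the place of Ddit3; fewer libraries make overlap rarer, and over all genes tested 1677 to 2550 were then higher without overlap and 1642 to 3111 lower, the most without KO 3. With the replicate number as a block limma called 0 genes. The medians of -0.213 and 0.219 could not change in that fit, because each replicate number holds 1 library of each label. Same-numbered libraries did not deviate together (correlations 0.004, -0.219 and -0.041), and no library correlated best with its own number. Among the members, depth limits Trib3 most, with 69 to 190 reads per library.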

Other observations

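Of the 176 genes outside the members with the 3-unit heat shock letters in their promoter window, 49 were tested. Of these 22 lay above 0 and 27 below, with a median difference of -0.041, 2 were higher without overlap and 6 lower, against 10.6% and 10.4% of all genes tested. Subunits of the cytosolic chaperonin CCT, which folds actin and tubulin, were among the cochaperones higher without overlap: Cct3 (0.11), Cct5 (0.12), Cct6a (0.17) and Cct7 (0.09), chosen after their values were seen. Cct2, Cct4 and Cct8 overlapped between the groups, and Tcp1, another listed subunit, was not among the genes without overlap either.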
